A study of Homo sapiens with 8 samples.

Results

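The 10 genes described here encode the enzymes and the chaperone that modify, fold and crosslink collagen: the prolyl hydroxylases P4HA1, P4HA2 and P3H1, the lysyl hydroxylases PLOD1, PLOD2 and PLOD3, the collagen chaperone SERPINH1, and the lysyl oxidases LOX, LOXL1 and LOXL2. They were taken by name from a deposited table of 54174 gene symbols, with no use of their measured values. All 10 were found in that table, had a value in all 8 libraries and were among the 9016 genes tested. RNA was sequenced from 143B cells, an established human osteosarcoma line that was derived from another osteosarcoma line by transformation with a RAS oncogene. All 8 libraries came from cells 48 h into a transient transfection, with a NELL1KO plasmid in the 4 knockout libraries (genotype label NELL1 knockout) and a vector plasmid in the 4 control libraries (genotype label control). NELL1 encodes a secreted matrix protein, and the title of the series places the question in its effect on the matrisome, the genes of the extracellular matrix. The transfection was transient, and the share of cells that took up the plasmid or lost NELL1 is not given in the sources used here.

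Collagen chains are modified in the endoplasmic reticulum before they leave the cell. Prolyl 4-hydroxylases convert proline to 4-hydroxyproline, which holds the triple helix together at body temperature, and P3H1 adds a rarer 3-hydroxyl group at a few prolines. The PLOD enzymes hydroxylate lysines, which then carry sugars or serve as starting points for crosslinks. SERPINH1, also called HSP47, binds the folded triple helix and accompanies it towards the Golgi. Outside the cell, the copper-dependent lysyl oxidases convert lysines to reactive aldehydes, from which the covalent crosslinks of collagen and elastin form. The prolyl and lysyl hydroxylases need iron, oxygen, 2-oxoglutarate and ascorbate, and several of these genes (P4HA1, P4HA2, PLOD2 and LOX among them) are known targets of the hypoxia-inducible factors (HIF).

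Because several of the members are known HIF targets, the short HIF recognition core was looked for in their promoters: the letters ACGTG or GCGTG on either strand, in the RefSeq windows of GRCh38.p14 that run from 250 bases before to 50 bases after each annotated start. The windows of 9 of the 10 genes were found (12 windows in all, as SERPINH1 and LOX have several starts), and LOXL2 had no entry. At least 1 match stood in the windows of 6 of these 9 genes (P4HA1, P3H1, PLOD1, PLOD2, SERPINH1 and LOX), and the stricter core ACGTG in those of 4 of them (P4HA1, PLOD2, SERPINH1 and LOX). Counted by window instead of by gene, 9 of 12 held a match and 7 of 12 held ACGTG, and some windows of LOX share the same matches. Of all 35116 windows in the reference table, 48.4% held 1 of the letter strings and 21.4% held ACGTG, so a match is common and describes only letters, not a bound site. The sequences below show how the matches lie in the hydroxylase genes with the largest differences and in LOX, 5′ to 3′ on the strand of the gene, with the core or its reverse complement in capitals. The first is the whole stretch of 250 bases before the start of PLOD2 (chr3:146161185-146161434, minus strand), which holds 3 matches; the others are 25 bases around 1 match each.
PLOD2 promoter: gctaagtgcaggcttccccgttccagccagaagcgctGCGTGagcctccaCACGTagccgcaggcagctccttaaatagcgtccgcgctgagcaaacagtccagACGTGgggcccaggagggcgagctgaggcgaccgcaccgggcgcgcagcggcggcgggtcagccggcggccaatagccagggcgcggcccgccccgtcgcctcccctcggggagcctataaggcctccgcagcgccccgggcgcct
P4HA1, 86 bases before the start (chr10:73096938-73096962, minus strand): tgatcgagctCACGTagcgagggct
PLOD1, 68 bases before the start (chr1:11934639-11934663, plus strand): gcgggggaggGCGTGgaggggcggg
LOX, 185 bases before its most upstream start (chr5:122078430-122078454, minus strand): tccctgtgcaACGTGtctgggggga

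Each value is a deposited log2 level after quantile normalization, whose unit before the logarithm is not given in the sources used here, so levels were compared between libraries of 1 gene and not between genes. A gene was called changed at a Benjamini-Hochberg adjusted p-value under 0.05 in a limma fit over all tested genes, knockout minus control, which called 13.1% of the 9016 genes (7.02% higher and 6.1% lower). NELL1 itself was barely measured: it was at -6.97 to -4.53 in the controls and at -6.96 to -4.82 in 3 knockout libraries and was blank in knockout 3, so its transcript does not check the labels. The knockout libraries stood apart as 1 and 2 against 3 and 4: over all tested genes the SD of the difference was 0.12 and 0.13 within those pairs and 0.46 to 0.50 between them, above the 0.36 to 0.45 between any knockout and control library. Among the controls, library 3 was the most distant from the others (0.19 to 0.29, against 0.10 to 0.15 among the other 3). Values are therefore given library by library, and results that rest on those libraries are given with and without them.

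**Figure D1:**
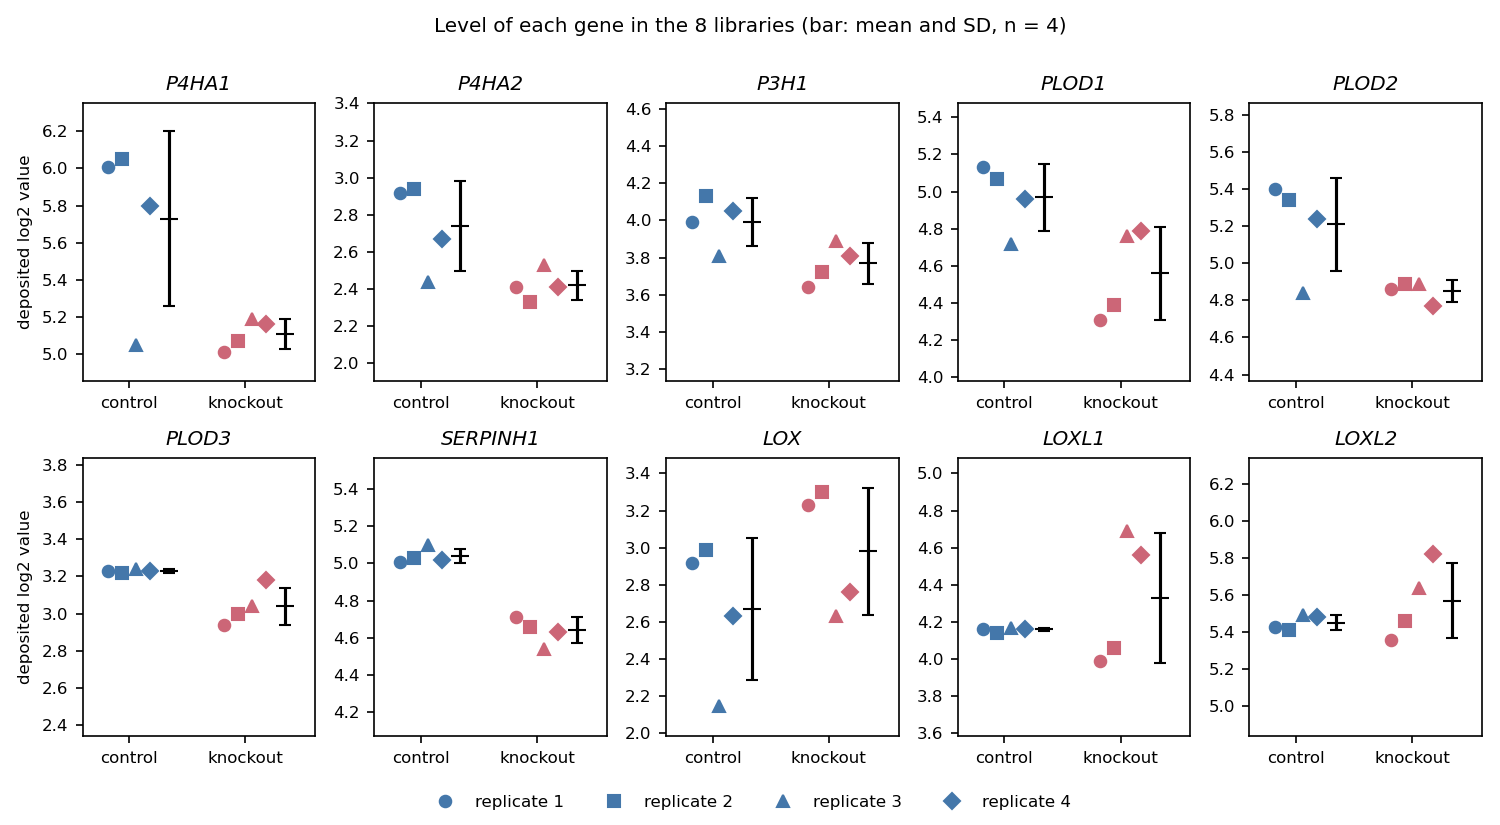
Deposited log2 value (vertical axis, the same span of 1.5 log2 units in every panel) of the 10 genes in 4 control libraries (blue) and 4 knockout libraries (red), with 1 marker shape per replicate number and the mean and SD (n = 4) in black at the right of each group. SERPINH1 and PLOD3 show no overlap between the groups, while the control replicate 3 triangle lies among the knockout values for P4HA1, P4HA2, P3H1, PLOD1 and PLOD2.

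SERPINH1, the collagen chaperone, fell in the knockout libraries and was the 1 member of 10 that was called, against 13.1% of all tested genes. Its log2 level was 5.01, 5.03, 5.10 and 5.02 in control libraries 1 to 4 and 4.71, 4.66, 4.54 and 4.63 in knockout libraries 1 to 4. Every knockout value lay below every control value, and the spread within each group was small. Control libraries averaged 5.04 ± 0.04 and knockout libraries 4.64 ± 0.07 (SD, n = 4 each). The log2 difference was -0.40 ± 0.06 (SE), with a limma adjusted p of 0.00696, or a change of -24.3% on the linear scale. In bulk RNA, fewer cells with the transcript and less of it per cell cannot be told apart. The difference was -0.33 over the first 2 replicate numbers and -0.47 over replicates 3 and 4. As the groups did not overlap, lower values in both sets and in 4 of 4 same-numbered pairs were bound to follow. When knockout 1 was averaged with 2 and knockout 3 with 4, the change was the same size but no longer passed the threshold (limma adjusted p = 0.0731, where 1.2% of all tested genes passed). SERPINH1 lies on chromosome 11 (75562253 to 75572783 in GRCh38.p14).

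Among tested genes outside the members, GPSM3 and STK17A had the profiles nearest to that of SERPINH1. Likeness was measured as the mean absolute difference between centred log2 profiles over the 8 libraries, which was 0.0301 for GPSM3 and 0.0397 for STK17A. GPSM3 fell by 0.36 (limma adjusted p = 0.0144) and STK17A fell by 0.48 (limma adjusted p = 0.00491) on the log2 scale. As both were chosen for their likeness to SERPINH1, such falls follow from the choice and are not separate support.

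The 6 hydroxylase genes all had lower means in the knockout libraries, by 0.19 to 0.62 log2 units, but none passed the adjusted threshold over all tested genes. Before adjustment limma gave p-values under 0.05 for 6 of 6, where 29.7% of all tested genes had such a value. The adjusted p-values lay between 0.07995 (P4HA1) and 0.125 (P3H1). Every 95% interval of the change lay below 0 in this fit, which restates the unadjusted p-values. With the replicate block the interval of P3H1 was -0.47 to 0.02, and 5 of the 6 had an unadjusted p-value under 0.05 (limma). With the knockout pairs averaged the adjusted p-values lay between 0.216 (PLOD1) and 0.312 (P3H1). In that fit 1 of the 6 had an unadjusted p-value under 0.05, where 20.6% of all tested genes had one.

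P4HA1, a catalytic subunit of prolyl 4-hydroxylase, had the largest difference of the 10 genes. In control libraries 1 to 4 its log2 level was 6.01, 6.05, 5.05 and 5.80, and in knockout libraries 1 to 4 it was 5.01, 5.07, 5.19 and 5.16. All knockout values were close together and 3 controls lay well above them, while control 3 lay inside the knockout range. The difference was -0.62 ± 0.20 (SE; 95% interval -1.08 to -0.16; limma adjusted p = 0.07995). Without control 3 it was -0.85 ± 0.08 (SE; limma adjusted p = 0.00280), so P4HA1 passed once this 1 library was removed. As control 3 was the lowest control, its removal could only enlarge the difference. Without control 1, 2 or 4 the limma adjusted p of P4HA1 was 0.204, 0.205 and 0.185.

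P4HA2, another catalytic subunit of that enzyme, had a like profile with smaller differences. Its levels were 2.92, 2.94, 2.44 and 2.67 in the controls and 2.41, 2.33, 2.53 and 2.41 in the knockouts. Again control 3 lay among the knockout values and the other controls above all of them. The difference of -0.32 ± 0.12 (SE; limma adjusted p = 0.107) became -0.42 ± 0.09 without control 3 (SE; limma adjusted p = 0.0223). PDLIM4, a neighbour that overlaps 15784 bp of P4HA2 on the opposite strand in GENCODE 29, differed by the same -0.32 (limma adjusted p = 0.0297). Whether the authors counted reads by strand is not given in the sources used here, so reads of the overlapping parts cannot be assigned with certainty.

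P3H1, which carries out prolyl 3-hydroxylation, was 3.99, 4.13, 3.81 and 4.05 in the controls and 3.64, 3.72, 3.89 and 3.81 in the knockouts. Its groups overlapped through control 3, which knockout 3 exceeded, and the difference was -0.23 ± 0.09 (SE; limma adjusted p = 0.125). Without control 3 it was -0.29 ± 0.08 and still did not pass (SE; limma adjusted p = 0.0513).

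PLOD2, the lysyl hydroxylase of collagen telopeptides, resembled P4HA2 more than any other pair of members resembled each other (mean absolute difference of centred profiles 0.0668). It was 5.40, 5.34, 4.84 and 5.24 in the controls against 4.86, 4.89, 4.89 and 4.77 in the knockouts. Control 3 again fell inside the knockout range, with the other 3 controls above it. The difference was -0.35 ± 0.12 (SE; limma adjusted p = 0.0855), and without control 3 it was -0.48 ± 0.07 (SE; limma adjusted p = 0.00707).

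PLOD1, which hydroxylates lysines of the triple helix, was not at 1 level within the knockout group. It was 5.13, 5.07, 4.72 and 4.96 in the controls, 4.31 and 4.39 in knockout libraries 1 and 2, and 4.76 and 4.79 in knockout libraries 3 and 4. The first pair of knockouts lay below all controls and the second pair just above control 3. Between groups the difference was -0.41 ± 0.14 (SE; limma adjusted p = 0.0861), made up of -0.75 for replicates 1 and 2 together and -0.06 for the other two. Whether those sets differ was not tested, because they were recognised from the data.

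PLOD3, which can both hydroxylate and glycosylate lysines, had nearly constant controls of 3.23, 3.22, 3.24 and 3.23. The knockout values of 2.94, 3.00, 3.04 and 3.18 were all lower, so the groups did not overlap, which was also true of 22.9% of all tested genes. Of the 10 members, PLOD3 and SERPINH1 met this description. The difference in PLOD3 was small, at -0.19 ± 0.07 (SE; limma adjusted p = 0.0973). Lower values in 4 of 4 same-numbered pairs follow from the lack of overlap.

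**Figure D2:**
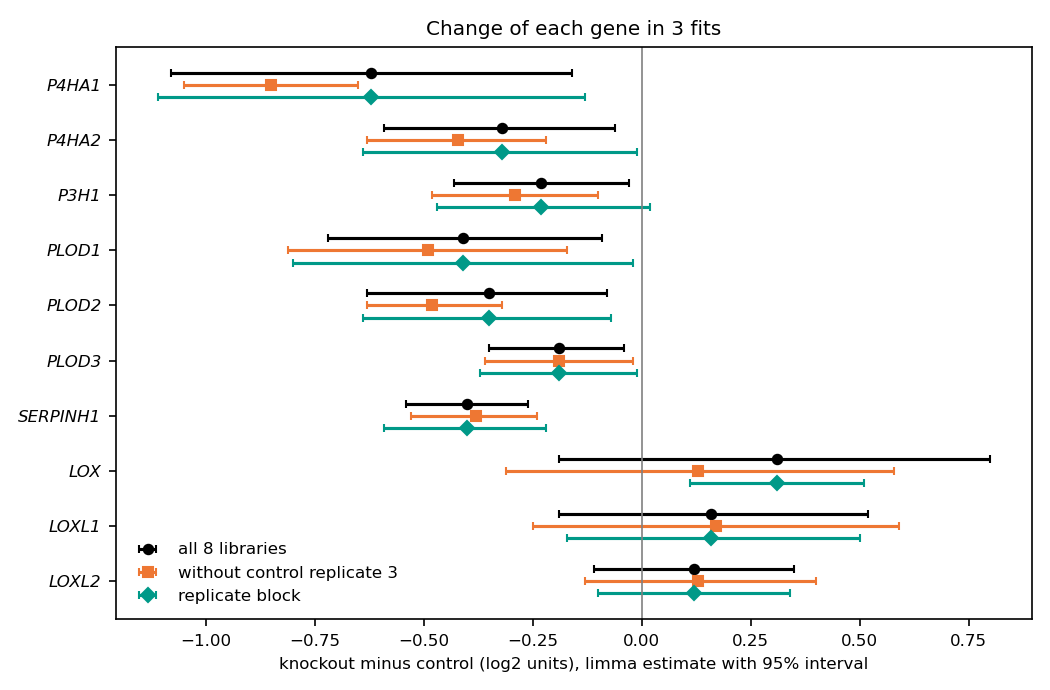
Knockout minus control in log2 units (horizontal axis) for each gene, as the limma estimate with its 95% interval, from all 8 libraries (black circles), without control replicate 3 (orange squares) and with the replicate number as a block (green diamonds). The orange intervals of P4HA1, P4HA2 and PLOD2 are narrower and lie further from 0 than the black ones, and the interval of LOX is narrowest with the block.

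Across the hydroxylases the position of control 3 recurred: it was the lowest control for 6 of the 10 members (P4HA1, P4HA2, P3H1, PLOD1, PLOD2 and LOX), as for 40% of all tested genes. Leaving it out raised the members called from 1 to 4 (P4HA1, P4HA2, PLOD2 and SERPINH1, all lower), where 6.8% of all tested genes fell. Without control 1, 2 or 4 instead, SERPINH1 was the 1 member called. A fit with a term for replicates 1 and 2 against 3 and 4 called 4 members as well (P4HA1, PLOD2, PLOD3 and SERPINH1, all lower), where 11.4% of all tested genes fell. In either fit the adjusted p of PLOD1 and P3H1 stayed above 0.05.

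A list of 28 other known HIF targets, none of them a member, was read beside these genes. Of its 26 tested genes, 7 fell and none rose (limma, adjusted p under 0.05), and before adjustment 12 had a p-value under 0.05, all lower. Over all tested genes, 6.1% fell and 29.7% had an unadjusted p-value under 0.05 in either direction. The median change was -0.21 log2 units, beside 0.01 over all tested genes. Of the called genes, the largest falls were those of NDRG1 (-1.17 ± 0.25), a stress-induced differentiation gene, of PFKFB4 (-1.17 ± 0.27), a regulator of glycolytic flux, and of VEGFA (-0.79 ± 0.20), the angiogenic growth factor (SE; limma adjusted p = 0.0199, 0.0291 and 0.0336). DDIT4, a stress-induced inhibitor of mTORC1 signalling, had a larger difference (-1.35 ± 0.51) that did not pass (SE; limma adjusted p = 0.1185) and did with the replicate block (limma adjusted p = 0.0387). The mean log2 level of the 26 genes was 5.19, 5.18, 4.72 and 5.04 in control libraries 1 to 4, and 4.76, 4.77, 4.67 and 4.68 in knockout libraries 1 to 4. Control 3 thus had a list mean inside the knockout range, as it did for P4HA1, P4HA2, P3H1, PLOD1 and PLOD2 taken 1 by 1. It also lay inside that range for LOXL1 and LOXL2, and for 51.7% of all tested genes. LOX, named above as a HIF target, went the other way. Its mean was 0.31 log2 units higher in the knockouts, and control 3 (2.15) lay below its knockout range of 2.63 to 3.30. Without control 3, 12 of the 26 genes were called, without control 1, 2 or 4 only 1 was, and none was when the knockout pairs were averaged.

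Chosen after its values were seen, the tested gene nearest in profile to P4HA1 was BNIP3, a mitophagy receptor that stands on the HIF target list (mean absolute difference 0.0404 over 8 libraries). BNIP3 was 6.84, 6.82, 5.69 and 6.56 in the controls and 5.77, 5.80, 5.95 and 5.86 in the knockouts. The nearest profile to P3H1 was that of SLC2A1, the glucose transporter GLUT1, which is on the same list (0.0366). The genes nearest to P4HA2, PLOD1 and PLOD2 were not on it: DNAJC3 for both P4HA2 and PLOD2, and NXPH4 for PLOD1. Of the oxygen-sensing genes themselves (HIF1A, EPAS1, ARNT, VHL and their hydroxylases), none of 7 tested was called, and 1, ARNT, had an unadjusted p-value under 0.05 in limma. ARNT differed by -0.43 ± 0.15 (SE; limma adjusted p = 0.0927) and passed with the replicate block (limma adjusted p = 0.0493). The part of HIF activity in the profiles of the members was not tested.

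**Figure D3:**
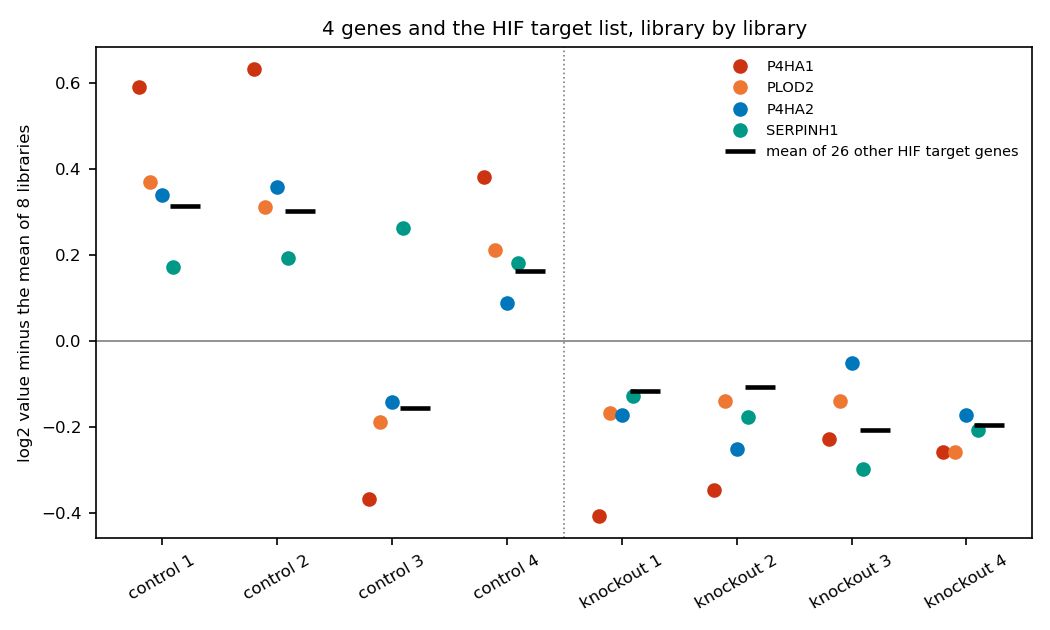
Log2 value of P4HA1, PLOD2, P4HA2 and SERPINH1 minus the gene's mean over the 8 libraries (points), with the mean of the 26 other HIF target genes treated in the same way (black bars), for each library in turn. P4HA1, PLOD2, P4HA2 and the list mean lie below 0 in control 3 and in all knockout libraries, whereas SERPINH1 is above 0 in all 4 controls. LOX, a HIF target with a higher knockout mean, is not drawn.

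The lysyl oxidases had means 0.12 to 0.31 log2 units higher in the knockout libraries, and none of the 3 passed the threshold before or after adjustment (limma, 0 of 3 at an unadjusted p under 0.05). LOX, the founding member of the family, was 2.92, 2.99, 2.15 and 2.63 in the controls and 3.23, 3.30, 2.63 and 2.76 in the knockouts. The groups overlapped, but each knockout library was above its same-numbered control, by 0.31, 0.31, 0.48 and 0.13. That libraries are paired by number was assumed and is not shown by the values. The difference was 0.31 ± 0.22 (SE; 95% interval -0.19 to 0.80; limma adjusted p = 0.388). With the replicate number as a block its standard error fell to 0.08 and the interval was 0.11 to 0.51, but the limma adjusted p of 0.0699 was still above the threshold, which 10.2% of all tested genes passed in that fit (SERPINH1 alone of the members). Without control 3 the unblocked difference was 0.13 (limma adjusted p = 0.681). LOX also overlaps 12376 bp of SRFBP1 on the opposite strand in GENCODE 29, and SRFBP1 differed by 0.40 ± 0.14 (SE; limma adjusted p = 0.0978).

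LOXL1, an oxidase known for its part in elastic fibres, was nearly constant in the controls at 4.16, 4.14, 4.17 and 4.16. In the knockouts it was 3.99 and 4.06 in libraries 1 and 2, below every control, and 4.69 and 4.56 in libraries 3 and 4, above every control. The overall difference of 0.16 ± 0.16 (SE; 95% interval -0.19 to 0.52; limma adjusted p = 0.519) thus averages -0.13 for replicates 1 and 2 with 0.45 for replicates 3 and 4.

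LOXL2, which also acts on collagen IV of basement membranes, was 5.43, 5.41, 5.49 and 5.48 in the controls and 5.36, 5.46, 5.64 and 5.82 in the knockouts. Knockout libraries 3 and 4 lay above all controls and the other knockouts within or below them. Its difference was 0.12 ± 0.10 (SE; 95% interval -0.11 to 0.35; limma adjusted p = 0.466). The centred profiles of LOXL1 and LOXL2 were the second closest among all pairs of members (mean absolute difference 0.0808), and those of P4HA1 and LOXL1 the most distant (0.468).

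**Figure D4:**
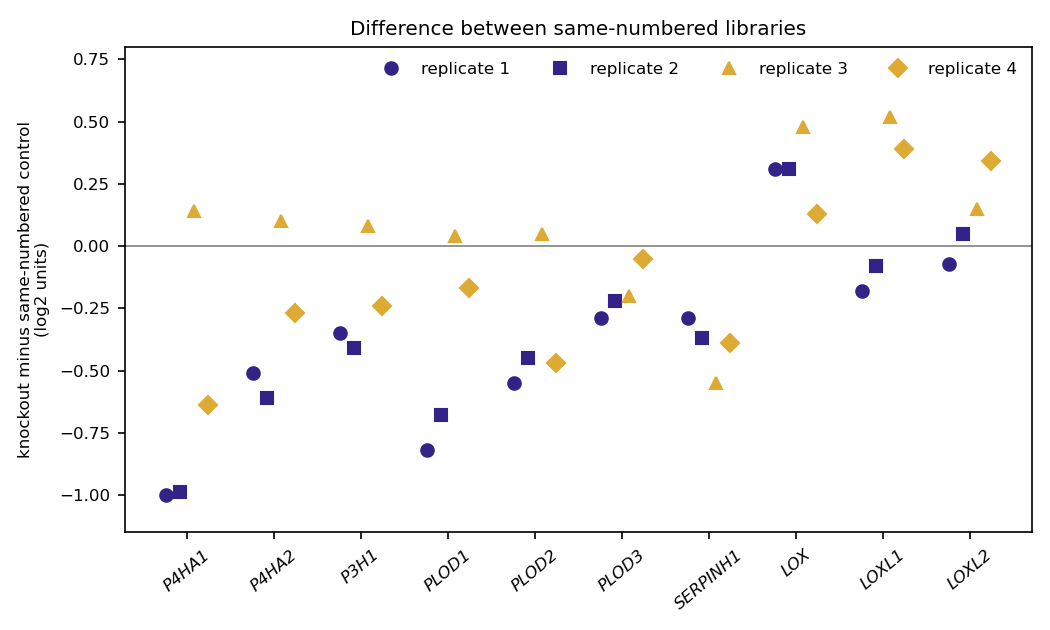
Knockout minus the same-numbered control in log2 units (vertical axis) for each gene, with purple circles and squares for replicates 1 and 2 and yellow triangles and diamonds for replicates 3 and 4. SERPINH1 and PLOD3 lie below 0 in all 4 pairs, as they must where the groups do not overlap. LOX lies above 0 in all 4, while the replicate 3 triangle is slightly above 0 for P4HA1, P4HA2, P3H1, PLOD1 and PLOD2.

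Other genes of collagen modification were read from the same fit. Among the relatives and partners of the prolyl hydroxylase members, 2 of 6 tested rose and none fell. Over all tested genes, 7.02% rose and 6.1% fell. P3H2, a prolyl 3-hydroxylase related to P3H1, rose by 0.93 ± 0.16 (SE; limma adjusted p = 0.00912), from a control mean of 2.04 ± 0.31 to a knockout mean of 2.97 ± 0.16 (SD, n = 4 each). P3H3, named after its values were seen because it was the other gene of these 2, rose by 0.35 ± 0.09 (SE; limma adjusted p = 0.0453) and passed no longer with the replicate block (limma adjusted p = 0.0502). P4HB, the protein disulfide isomerase that forms the second subunit of prolyl 4-hydroxylase, differed by -0.10 ± 0.07 (SE; limma adjusted p = 0.371). CRTAP and PPIB, which form a complex with P3H1, differed by less than 0.005 and by 0.14 log2 units (limma adjusted p = 0.980 and 0.462).

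None of the 4 tested partners of lysine modification (FKBP10, FKBP14, COLGALT1 and TMEM38B) was called, and 1 had an unadjusted p-value under 0.05 in limma. The remaining lysyl oxidases LOXL3 and LOXL4 were too low to be tested. Of the 3 tested genes of procollagen processing (BMP1, PCOLCE and PCOLCE2) none was called and 1 had an unadjusted p-value under 0.05 (limma). Of the 4 tested genes of ascorbate, copper and iron supply none was called and 1 had an unadjusted p-value under 0.05 (limma). Over all tested genes, 13.1% were called and 29.7% had an unadjusted p-value under 0.05 in the same fit.

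In the export of procollagen from the endoplasmic reticulum, 1 of 8 tested genes changed (12.5%), near the 13.1% called over all tested genes. SEC24D, a cargo-selecting part of the COPII coat that large procollagen carriers need, fell from 3.75 ± 0.03 to 2.84 ± 0.24 (SD, n = 4 each), by 0.91 log2 units (limma adjusted p = 0.00301). It also passed when the knockout pairs were averaged (limma adjusted p = 0.0270).

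Among the substrates of these enzymes, 3 of 9 tested collagen chain genes fell and none rose, where 6.1% of all tested genes fell. The 3 were the collagen VI genes COL6A1, COL6A2 and COL6A3, with differences of -1.30, -1.27 and -1.03 (limma adjusted p = 0.00111, 7.899e-04 and 0.00762). With the replicate block 4 of the 9 fell, where 10.2% of all tested genes were called in either direction. The other was COL18A1, a basement membrane collagen (-0.38; limma adjusted p = 0.165 without the block and 0.0337 with it). COL1A1 stayed below the mean of 1 required for the test, and COL1A2, the partner chain of collagen I, was blank in 4 libraries.

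The labelled cell type was checked against marker genes. VIM, a mesenchymal intermediate filament gene, had a mean of 10.83 ± 0.03 in control and 10.40 ± 0.24 in knockout libraries (SD, n = 4 each), and SPARC of 5.49 ± 0.33 and 6.12 ± 0.05 (limma adjusted p = 0.0425 and 0.0294). The osteoblast markers SP7 and IBSP were blank in all libraries, BGLAP was measured in 3 of them, and RUNX2 and ALPL were measured in all of them below the tested range. SPP1, which encodes osteopontin, was measured in every library at 3.08 to 4.70 and differed by 0.45 ± 0.38 (SE; limma adjusted p = 0.477). Endothelial markers summed to 0.0917 to 0.657 on the linear scale per library, and the blood markers PTPRC, CD3E and HBB were blank throughout. The fourth blood marker, CD68, was measured in every library, at 5.54 to 5.90, and differed by -0.16 (limma adjusted p = 0.305). Of the epithelial markers, KRT14 was blank in all libraries, and CDH1 and KRT5 were measured in 2 and 3 of them. KRT8 rose by 0.38 (limma adjusted p = 0.0176). KRT18 differed by 0.19 and EPCAM by -0.32, and neither was called (limma adjusted p = 0.100 and 0.345). The linear sum of the 6 epithelial markers was 535 to 578 in the controls and 611 to 702 in the knockouts, and its part in the differences of the members was not tested.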

How the data were processed

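RNA was extracted with TRIzol and made into stranded total-RNA libraries, per the labels' protocols. The authors deposited 1 log2 value per gene symbol and library. The submitters' processing notes name bcl2fastq, Partek 7.0 and GRCh38; the aligner, the counter, the unit before the logarithm and the rule for blanks are not given in the sources used here. Base 2 was inferred from the range (-10.48 to 12.13). The mean (1.07), median (1.77) and extremes are the same in every library, which shows that the authors deposited quantile-normalized log2 values; a change of total RNA cannot be seen in them. Blanks were treated as missing. No read totals were used, so depth is unknown and no counting error can be given; precision rests on the spread between the 4 libraries of a group, which the series' design text calls biological replicates.

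Genes with 8 values and a mean of at least 1 were fitted with limma 3.58.1 (R 4.3.3; lmFit, eBayes without trend), knockout minus control, with Benjamini-Hochberg adjustment over all 9016. On simulated data with 200 genes changed by 1 log2 unit among 9016, this fit called 89% of them. The simulated libraries were independent, without the close knockout pairs, and the change was larger than the estimate for any member. The share therefore does not tell how often changes of the members' size would be called. Deviations from the group means correlated at 0.20 to 0.29 across genes for the 4 same-numbered pairs. Different numbers within replicates 1-2 or 3-4 correlated at 0.11 to 0.31. These values set replicates 1-2 apart from 3-4 but do not show that libraries are paired by number. Pairing by number was assumed for the blocked fit, which was run beside the unblocked one, and for the same-numbered differences. Genes named were NELL1, the members, for each list at most 3 called genes per direction without overlap between groups, and the 2 nearest profiles of each called member; all other genes named with values (such as P3H3, P4HB, CRTAP, PPIB, ARNT, DDIT4, COL18A1, BNIP3, SLC2A1, DNAJC3, NXPH4, overlapping neighbours and markers) fall outside this rule and were chosen after their values were seen. The members, lists and alternatives were chosen with earlier results of these data known. Promoter sequences and positions are from RefSeq (GRCh38.p14), overlaps from GENCODE 29.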

Additional observations from a re-analysis of the deposited data

Results flagged for a closer look

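LOXL1 differed in direction between the sets of same-numbered libraries. It was lower in both knockout libraries of replicates 1 and 2, with a mean difference of -0.13, and higher in both of replicates 3 and 4, with a mean difference of 0.45. The difference between the sets was not tested. No single library stood out from the other 3 of its group by Dixon's criterion in any of 44 groups examined, which chance alone would do in about 1 group in 20.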

How the results depend on the processing

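The 10 member changes kept their direction in every fit of all or all but 1 or 2 libraries. The members called (1 of 10) numbered 0 with each knockout pair averaged, where 2 had an unadjusted p under 0.05 (limma), and 4 with a term for replicates 1-2 against 3-4. Leaving out 1 library gave 1 to 4, the 4 without control replicate 3; leaving out replicate 3 in both groups, chosen after seeing the data, gave 5. All genes called (1183) numbered 729 with a mean of at least 3, 108 with knockout pairs averaged, 2274 with the term for replicates 1-2 against 3-4 and 272 at an adjusted p under 0.01. They ranged from 391 (without control 4) to 1353 (without control 3) when 1 library was left out, with 444 without control 1, 431 without control 2 and 716 without knockout 3. With the replicate block 924 genes and the same 1 member were called, and the block changed no call of a member; of the other genes named it ended those of PFKFB4 (limma adjusted p = 0.0650), VIM (0.0507) and P3H3, and it added ARNT, DDIT4 and COL18A1 (limma adjusted p = 0.0493, 0.0387 and 0.0337). Leaving out single libraries, or dropping the filter, also ended calls of NDRG1, PFKFB4, VEGFA, SPARC, VIM, KRT8 and P3H3; with knockout pairs averaged these and P3H2 (limma adjusted p = 0.0752) did not pass. Within replicates 1 and 2 alone, LOXL1 (-0.13) and LOXL2 (-0.01) were on the other side of 0. Depth is unknown. The causes were not tested.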
